A study of Mus musculus with 6 samples.

Results

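Transcription factors of the nervous system and the sense organs were followed in hair follicle stem cells labelled as lacking Ring1a and Ring1b. The set holds 49 genes given by symbol, among them Pax, Sox, LIM homeodomain, Olig and proneural factors, and all 49 were found among the 23377 gene symbols of the count table. RNA-seq was made from Lgr5-positive hair follicle stem cells of C57BL/6 mice, 2 libraries of the genotype Ring1a/b-/- (RingKO) and 2 wild-type (WT) libraries, with 3000 sorted cells a sample per the labels' protocol. The sources used here do not give the deleted exons, the Cre driver, the time after deletion or the age of the mice, and nothing says whether the 2 libraries of a genotype came from separate mice, so a p-value here reflects the spread among these libraries, which may be technical. Total counts were 4844381 and 7740945 in RingKO and 2785843 and 3056593 in the wild type, so the knockout libraries were the deeper pair.

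Ring1a and Ring1b are alternative catalytic subunits of Polycomb repressive complex 1, which ubiquitinates histone H2A and keeps developmental regulators silent in cells that do not need them. Factors that specify neurons, glia, eye and ear are classical Polycomb targets in tissues outside the nervous system, and their promoters often lie in CpG islands, stretches of DNA rich in unmethylated CG dinucleotides. A few of them also have known roles in skin or its appendages: Sox21 in the cuticle of the hair shaft, En1 in ventral limb ectoderm and sweat glands, and Pax3 in the melanocyte lineage. The label of the set was taken as a statement on the known roles of these genes and not on the sorted cells, which carried keratinocyte and follicle transcripts such as Krt5 (364 and 306 CPM in the knockout, 430 and 364 CPM in WT) and Lgr5 (251 and 240 against 140 and 194 CPM). CPM is edgeR's unit of depth-scaled level, each count divided by the library total in megacounts after TMM scaling.

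The promoters of the set are shown first because most, though not all, of the members' windows were rich in CG dinucleotides. RefSeq promoter windows on GRCm38.p6 matched 42 of the 49 members, with 51 windows since some genes have several starts, and the 250 bases before the start were read. Pax3, Sox3, Lhx5, Olig1, Otx1, En2 and Onecut2 had no match. In the 7 examples below, every CG dinucleotide is in capitals. Pou4f1, Emx2 and Isl2 are shown as members higher in both knockout libraries than in either wild-type library, Sox21 as the member with most wild-type counts, Lhx9 as a member with few CG, and Neurog1 and Nkx6-2 as members with no count in any library.
Pou4f1, chr14:104468000-104468249, minus strand: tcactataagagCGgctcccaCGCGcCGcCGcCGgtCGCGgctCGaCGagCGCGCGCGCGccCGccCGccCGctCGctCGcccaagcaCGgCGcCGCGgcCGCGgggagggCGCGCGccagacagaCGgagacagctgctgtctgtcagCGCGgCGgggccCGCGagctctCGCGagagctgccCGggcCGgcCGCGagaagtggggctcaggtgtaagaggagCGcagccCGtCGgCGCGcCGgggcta
Emx2, chr19:59458440-59458689, plus strand: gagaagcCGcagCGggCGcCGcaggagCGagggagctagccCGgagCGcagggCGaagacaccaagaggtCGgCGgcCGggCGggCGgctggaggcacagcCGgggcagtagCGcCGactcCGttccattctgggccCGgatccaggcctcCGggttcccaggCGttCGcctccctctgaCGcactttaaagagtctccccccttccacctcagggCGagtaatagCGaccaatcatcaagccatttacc
Isl2, chr9:55540899-55541148, plus strand: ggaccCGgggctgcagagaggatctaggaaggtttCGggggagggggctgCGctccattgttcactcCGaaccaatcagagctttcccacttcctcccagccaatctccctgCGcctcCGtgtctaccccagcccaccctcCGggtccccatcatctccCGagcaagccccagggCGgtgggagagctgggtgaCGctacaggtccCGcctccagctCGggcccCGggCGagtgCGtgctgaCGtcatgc
Sox21, chr14:118237031-118237280, minus strand: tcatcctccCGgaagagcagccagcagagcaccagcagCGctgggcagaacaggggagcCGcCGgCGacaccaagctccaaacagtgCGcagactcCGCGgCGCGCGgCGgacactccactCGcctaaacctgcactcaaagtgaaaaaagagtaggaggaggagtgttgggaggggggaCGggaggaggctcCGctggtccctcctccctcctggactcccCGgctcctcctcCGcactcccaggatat
Lhx9, chr1:138842445-138842694, minus strand: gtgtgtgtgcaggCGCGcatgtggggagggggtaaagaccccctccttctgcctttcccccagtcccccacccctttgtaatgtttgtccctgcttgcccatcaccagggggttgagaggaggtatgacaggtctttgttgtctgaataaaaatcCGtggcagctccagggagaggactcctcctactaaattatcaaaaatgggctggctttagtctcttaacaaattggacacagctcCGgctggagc
Neurog1, chr13:56252181-56252430, minus strand: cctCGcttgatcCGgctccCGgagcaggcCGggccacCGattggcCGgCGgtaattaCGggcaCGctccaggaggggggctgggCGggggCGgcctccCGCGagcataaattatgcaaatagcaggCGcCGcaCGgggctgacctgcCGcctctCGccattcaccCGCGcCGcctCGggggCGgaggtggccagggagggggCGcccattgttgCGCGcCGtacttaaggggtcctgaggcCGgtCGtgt
Nkx6-2, chr7:139582798-139583047, minus strand: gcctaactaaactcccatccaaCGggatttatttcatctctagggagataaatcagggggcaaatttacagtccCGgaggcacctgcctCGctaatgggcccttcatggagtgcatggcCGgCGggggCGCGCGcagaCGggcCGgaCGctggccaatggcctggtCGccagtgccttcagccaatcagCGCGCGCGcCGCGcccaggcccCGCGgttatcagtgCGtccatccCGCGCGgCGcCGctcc

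The windows of the members held a median of 16 CG dinucleotides in 250 bases, with quartiles of 10.5 and 22, against a median of 6 over all 32851 windows of the table. At least 10 CG were found in 76.5% of the members' windows and in 37.8% of all windows. The share was 71.2% for windows of genes with at least 1 CPM in both wild-type libraries. Among members it was 88.2% for those with at least 1 CPM in both knockout libraries and 66.7% for others with a count. For members with no count it was 85.7%. Genes with at least 1 CPM in both wild-type libraries had a median of 16, while genes with no count in any library had a median of 2. Within the set, the ranges of CG content overlapped between members with and without RNA. Members with at least 1 CPM in both knockout libraries had a median of 18 CG (17 windows, 4 to 47), and all other members a median of 14 (34 windows, 2 to 36). Of these others, members with a count had a median of 13 (27 windows) and the 7 members with no count a median of 18 (8 to 29). Pou4f1 had 47 CG and Lhx9 had 4, and both had RNA in the knockout libraries. Neurog1 and Nkx6-2, with no count, had 29 and 26.

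**Figure D1:**
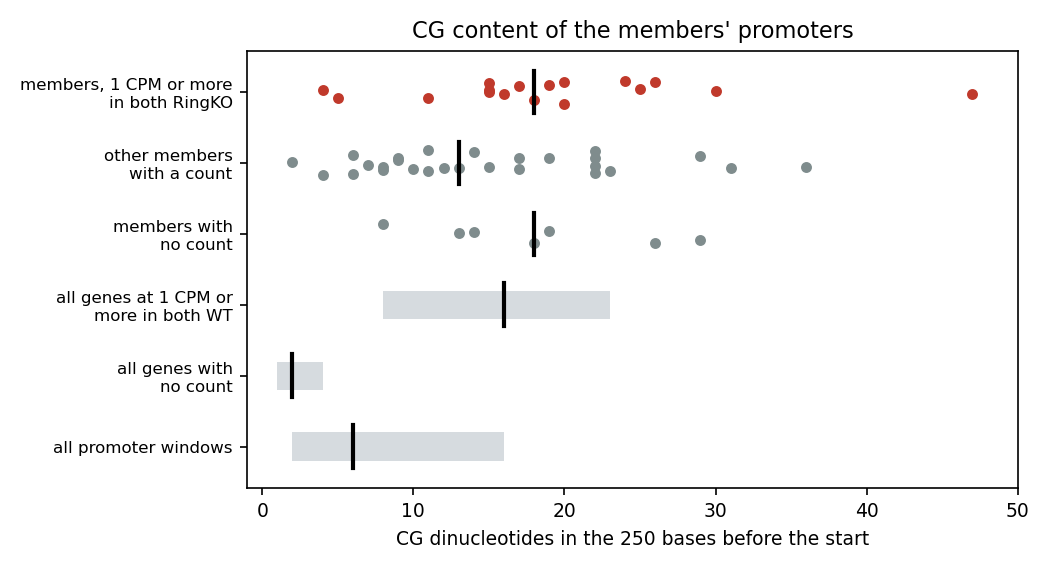
CG dinucleotides in the 250 bases before the start (x axis), with 1 point per promoter window of a member and, for all genes, a grey bar from the lower to the upper quartile; black lines are medians. The members' medians, 13 for other members with a count and 18 for the other two rows, lie on either side of the median of 16 of genes expressed in wild type, and all are above the median of 2 of genes with no count.

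Short motifs were searched on both strands of the same windows: the TATA box core TATAAA, the CCAAT box, and an E-box bound by proneural bHLH factors, CAGCTG, which reads the same on both strands. The TATA box core was in 9.8% of the members' windows and 12.4% of all windows, the CCAAT box in 43.1% and 33.8%, and the E-box in 7.84% and 13%. A match is a description of the letters in the window and not a binding site. Ring1b peaks of the series are on build mm9 and were not joined to the members, so binding of Ring1b at these promoters was not analysed here.

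Most members were at or near 0 counts in the wild type, and more of them had RNA in the knockout.
At least 1 CPM in both wild-type libraries was found for 2 of 49 members (4.08%), Sox21 and Onecut2, and at least 1 CPM in both knockout libraries for 17 (34.7%). Over all genes of the table these shares were 53.0% in the wild type and 56.1% in the knockout. In both wild-type libraries 29 members had 0 counts, and of these 22 had a count in a knockout library, 13 had a count in both, and 7 reached 1 CPM in both (24.1%). Of all 7413 genes at 0 counts in the wild type, 10.4% had a count in both knockout libraries and 2.91% reached 1 CPM in both. In bulk RNA, more cells with the transcript and more RNA per cell cannot be told apart.

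**Figure D2:**
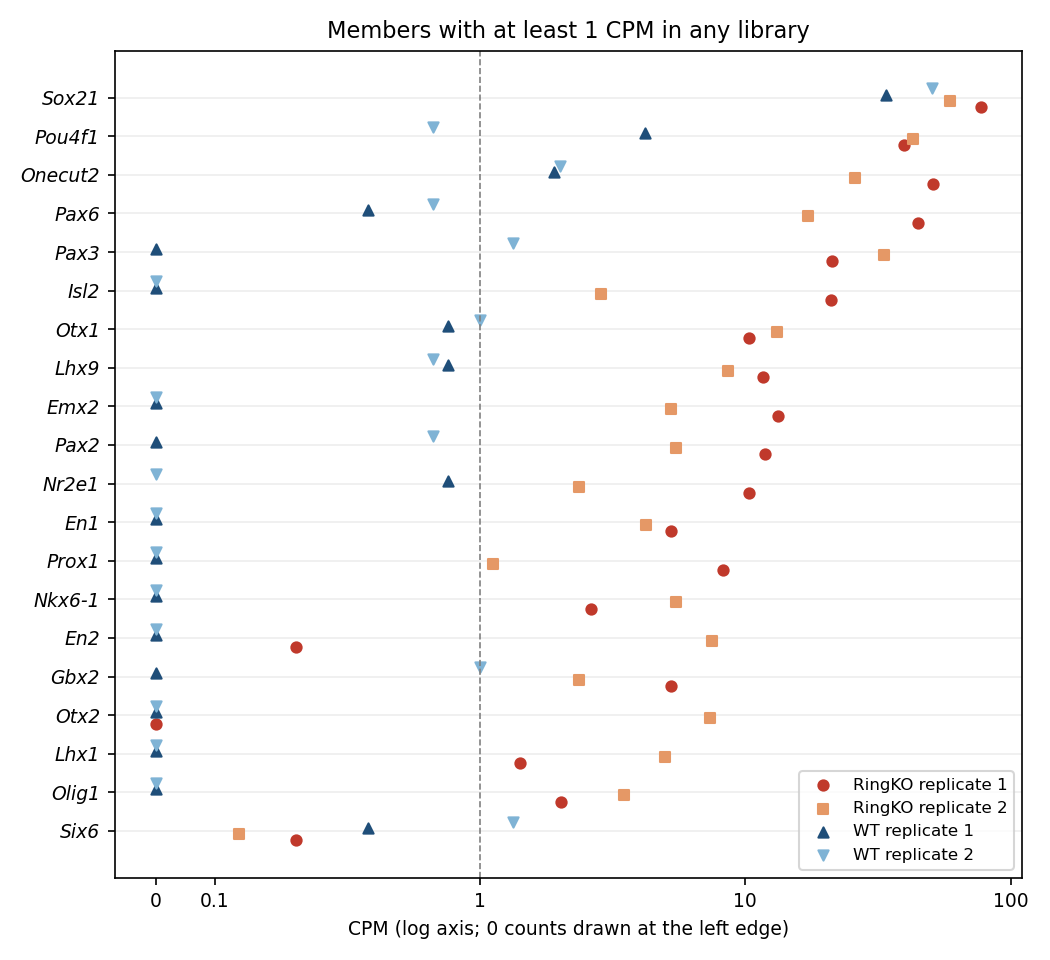
CPM (log axis, 0 drawn at the left edge) of the 20 members with at least 1 CPM in any library, 1 symbol per library; the dashed line is 1 CPM. For 17 members both knockout symbols lie right of the line, and for Sox21 and Onecut2 both wild-type symbols do as well.

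Members were also detected in greater number in the knockout, and these libraries were also deeper. A count was found for 29 and 39 members in the knockout libraries and for 13 and 17 in the wild-type libraries. If each library were drawn down to the depth of wild-type replicate 1, 25.7 and 31.8 members would be expected with a count in the knockout, against 13 and 16.6 in the wild type. Of the 49 members, 7 had no count in any library: Pax5, Pax7, Lhx4, Neurog1, Neurog3, Nkx2-2 and Nkx6-2.

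**Figure D3:**
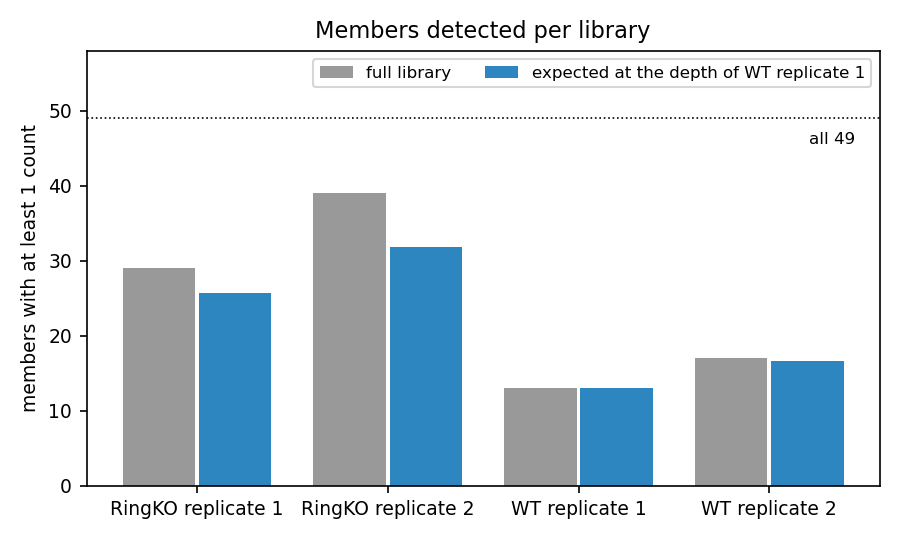
Number of members with at least 1 count in each library (y axis), as counted (grey) and the number calculated for the depth of the shallowest library (blue); the dotted line is the full set of 49. At equal depth the knockout libraries stand at 25.7 and 31.8 and the wild-type libraries at 13 and 16.6.

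Both knockout libraries were above both wild-type libraries for 24 of the 42 members with a count (57.1%), against 22.4% of all genes with a count. These 24 were the 17 members with at least 1 CPM in both knockout libraries and 7 more at lower or uneven counts. Both were below for 2 members, where the share over all genes with a count was 16.9%, and 16 overlapped or tied. The 22 members with 0 wild-type counts and a knockout count could lie above the wild type or tie, but not below it. The knockout libraries were also the deeper pair, so the counts of 24 and 2 are not read against the shares over all genes. Summed over all members, the level was 342 and 260 CPM in RingKO and 44.8 and 63.4 CPM in WT. Sox21 held most of the wild-type sum, and without it the sums were 264 and 201 against 11 and 12.7 CPM, a ratio of means of 19.6.

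Of the 49 members, 12 passed edgeR's low-count filter and were tested over all 13134 genes, and 0 passed an adjusted p of 0.05 in edgeR's quasi-likelihood test. Over all genes tested, 0.0533% passed as higher in RingKO and 0.00761% as lower. The lowest adjusted p among members was 0.124, for Pax6 and Onecut2. At an unadjusted p under 0.05, 11 of the 12 were higher and 0 lower, where 8.47% of all genes tested were higher. This direction was largely fixed by the filter, which asks for about 2.53 CPM in 2 libraries: 11 of the 12 passed it through both knockout libraries and not through both wild-type libraries, and 10 lay under it in both wild-type libraries. Sox21 alone of the 12 passed it in the wild type, so nothing is read from the count of 11. The outcome of the test depended on the tool and the filter. DESeq2 on the same counts called 10 members as higher and 0 as lower (6.21% of all genes with an adjusted p were called higher), edgeR with no low-count filter called 6 as higher (2.42% of all genes with a count), and limma-voom called 0 (6 unadjusted). The authors' deposited table marked 12 members as higher and 0 as lower, with 4.56% of all genes marked higher. It comes from the same counts. Its marks are not a cut at an adjusted p of 0.05, since Nkx6-1 and Prox1 were marked at adjusted p of 0.076 and 0.075 in it. The 12 and the 4.56% are thus at another threshold than the DESeq2 values above. With 2 libraries against 2, an exact permutation test of a single gene cannot go below 0.333.

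**Figure D4:**
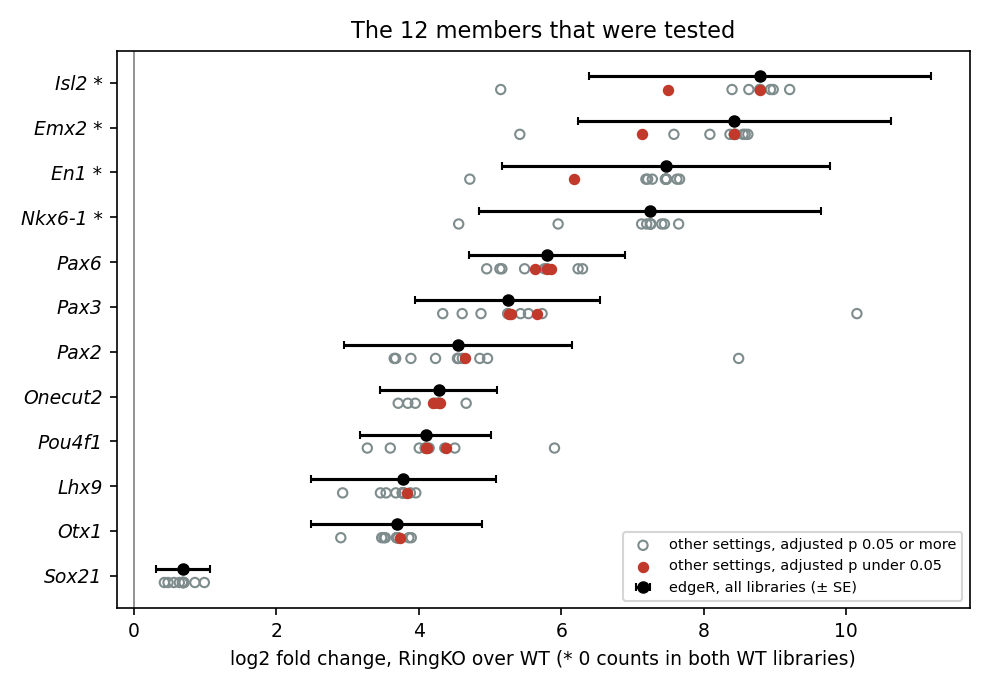
Log2 fold change, RingKO over WT (x axis), for the 12 members that were tested: black points with SE are edgeR with all libraries, and points below each are the alternative tools, filters, scalings and left-out libraries, red where the adjusted p was under 0.05. All values lie above 0, a direction largely fixed by the low-count filter for all but Sox21, and fitted values of the 4 genes at 0 wild-type counts (asterisk) depend on the fit and are no measured fold.

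Among the Pax factors, which bind DNA through a paired domain, Pax6, Pax3 and Pax2 had RNA in the knockout. Pax6, a regulator of eye and forebrain development, stood at 44.8 and 17.2 CPM in RingKO and 0.38 and 0.667 CPM in WT. Counting intervals, here and below, leave out the spread between libraries. Over all genes that spread was above counting error, with a chi-square over its degrees of freedom of 25 in RingKO and 15 in WT. The groups of Pax6 did not overlap, and its ratio of pooled counts was 52 with a 95% counting interval of 17.7 to 253, on 3 wild-type counts (edgeR log2 fold change 5.80 ± 1.1 SE, adjusted p = 0.124). The ratio was 32.2 without knockout replicate 1 and 84.1 without knockout replicate 2. In RefSeq's gene spans Pax6 overlaps Elp4 and the antisense Pax6os1, and whether counting used strand is not stated. Elp4 had 160 and 188 counts in the wild-type libraries where Pax6 had 1 and 2, and Pax6os1 had at most 1 count in a library.

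Pax3, a factor of neural crest, melanocyte and muscle precursors, stood at 21.2 and 33.2 CPM in RingKO and 0 and 1.33 CPM in WT, 38.1-fold higher (log2 fold change 5.25 ± 1.3, edgeR adjusted p = 0.149). Without wild-type replicate 1 the ratio was 21.5, and against the 0 counts of wild-type replicate 1 alone it was at least 25.1. The summed level of 10 melanocyte markers was 231 and 141 CPM in RingKO and 205 and 200 CPM in WT, with 0 markers higher and 2 lower in both knockout libraries. Most of each sum was Kit, at 117 and 87 against 127 and 109 CPM. Of these markers, Sox10 had 0 counts in all 4 libraries, and Dct, an enzyme of melanin synthesis, stood at 6.87 and 23.1 against 19.4 and 15.7 CPM. Ednrb stood at 44 and 7.97 against 8.73 and 2.67 CPM, and Mitf at 43 and 10.3 against 20.5 and 15.3 CPM. The 2 markers lower in both knockout libraries were Tyr and Mlana. Tyr stood at 18 and 12.6 against 22.4 and 25 CPM, and Mlana at 0.202 and 0 against 4.18 and 13 CPM. Of all genes with a count, 22.4% were higher and 16.9% lower in both knockout libraries. The part of melanocytes in the counts of Pax3 was not tested. Pax2, a factor of kidney, ear and the midbrain-hindbrain boundary, stood at 11.9 and 5.48 CPM in RingKO and 0 and 0.667 CPM in WT. It was 22.3 times higher by pooled counts, with a 95% counting interval of 6.02 to 187 (edgeR adjusted p = 0.22). Without wild-type replicate 1 the ratio of Pax2 was 11.9, without wild-type replicate 2 at least 6.96, and without knockout replicate 2 it was 33.5. The 3 other Pax genes were not found in the knockout: Pax5, which specifies B cells, and Pax7, of muscle stem cells and dorsal neural tube, had no count, and Pax8, of thyroid and kidney, had 1 count in wild-type replicate 2.

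Sox21 was the member with most wild-type counts. It encodes a repressor of the SoxB family and is also known from the hair shaft cuticle, and it stood at 77.3 and 59 CPM in RingKO and 33.8 and 50.7 CPM in WT. The groups did not overlap but lay close, with a 1.61-fold difference that did not pass the test (log2 fold change 0.69 ± 0.38, edgeR adjusted p = 0.412). Sox1 and Sox3, which maintain neural progenitors, and Sox14, a second repressor of the family, had at most 3 counts in a library.

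LIM homeodomain factors, which assign neuron subtypes by pairing with Ldb cofactors, were led by Lhx9 and Isl2. Lhx9, of gonad, limb and dorsal spinal interneurons, stood at 11.7 and 8.59 CPM in RingKO and 0.759 and 0.667 CPM in WT, 13.8-fold higher with no overlap (log2 fold change 3.78 ± 1.3, edgeR adjusted p = 0.199). Isl2, of motor neurons and retinal ganglion cells, stood at 21 and 2.86 CPM in RingKO and had 0 counts in the wild type, at least 18.3-fold higher (edgeR adjusted p = 0.154). The knockout libraries of Isl2 were far apart, and the bound was at least 5.37-fold with replicate 1 left out and at least 39.4-fold with replicate 2 left out. Lhx1, of head organizer, kidney and motor neurons, stood at 1.41 and 4.98 CPM against 0 counts, at least 6.79-fold higher, or at least 2.65-fold without knockout replicate 2. The 6 others stayed under 1 CPM in every library. Lhx8 had 1 and 8 counts and Lmx1b 1 and 6 counts in the knockout with 0 in the wild type, Lhx5 had 2 and 5 against 0 and 1, Lmx1a had 4 and 4 against 1 and 2, Lhx3 had 1 count in all, and Lhx4 none.

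Factors that divide the early brain into regions gave 4 members with at least 1 CPM in both knockout libraries. Otx1, of forebrain and inner ear, stood at 10.3 and 13.2 CPM in RingKO and 0.759 and 1 CPM in WT, 12.9-fold higher with no overlap (log2 fold change 3.69 ± 1.2, edgeR adjusted p = 0.192). Emx2, of cortex and the urogenital tract, stood at 13.3 and 5.23 CPM against 0 counts, at least 15.6-fold higher (edgeR adjusted p = 0.15), with bounds of at least 9.81-fold with knockout replicate 1 left out and at least 25-fold with replicate 2 left out. For members at 0 counts in the wild type, leaving out a wild-type library lowered each bound by its construction, since the floor of 3 counts then stands over fewer reads. En1, of the midbrain-hindbrain boundary, stood at 5.25 and 4.23 CPM against 0 counts, at least 8.67-fold higher (edgeR adjusted p = 0.181), and Gbx2, of the anterior hindbrain, at 5.25 and 2.37 against 0 and 1 CPM, a ratio of 6.5 (95% counting interval 2.09 to 32.7). Without wild-type replicate 1 that ratio was 3.46, without wild-type replicate 2 at least 3.04, and without knockout replicate 2 it was 9.85. Gbx2 did not pass edgeR's low-count filter, and its adjusted p in DESeq2 was 0.378.

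A pair of regional factors had all or nearly all of their counts in knockout replicate 2. Otx2, the head and eye paralogue of Otx1, had 0 counts in knockout replicate 1 and 59 (7.34 CPM) in replicate 2. En2, the paralogue of En1, had 1 count (0.202 CPM) and 60 (7.47 CPM), both against 0 counts in the wild type. Knockout replicate 1 thus gave no second measurement at such a level for either gene. Vax1, of the optic stalk, and Six3, of eye field and forebrain, stayed under 1 CPM. Six6, of retina and pituitary, was the member that lay lower in the knockout with a wild-type library above 1 CPM: it had 1 count in each knockout library (0.202 and 0.124 CPM) and 1 and 4 in the wild type (0.38 and 1.33 CPM). The other member below the wild type in both knockout libraries was Sox1, with 0 and 2 counts against 1 and 1.

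Proneural bHLH factors, which start neuron formation, had almost no counts in either genotype. Neurog1 and Neurog3 had none, Neurog2 had 2 counts in RingKO and 1 in the wild type, and Neurod1 and Neurod4 had 1 count each in knockout replicate 2. Olig1, an oligodendrocyte factor, stood at 2.02 and 3.49 CPM in RingKO against 0 counts in the wild type, at least 5.49-fold higher, while its paralogue Olig2 had 1 count in all 4 libraries. Among factors of ventral progenitors and interneurons, Nkx6-1, of motor neuron progenitors and pancreatic beta cells, stood at 2.62 and 5.48 CPM against 0 counts, at least 8.23-fold higher (edgeR adjusted p = 0.194). Without knockout replicate 2 that bound was 4.92-fold. Nkx2-2 and Nkx6-2 had no count, although Nkx2-2os, which overlaps Nkx2-2 in RefSeq's gene spans, had 22 and 2 counts in RingKO and 0 in the wild type. Dbx1 had 3 counts in knockout replicate 2, and Barhl2 had 2 and 3 counts against 0 and 2.

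Of the sensory and autonomic homeodomain factors 1 had more than 2 counts in a library. Pou4f1, a POU factor that sets the identity of sensory neurons, stood at 39.6 and 42.8 CPM in RingKO and 4.18 and 0.667 CPM in WT, 17.1-fold higher (log2 fold change 4.10 ± 0.92, edgeR adjusted p = 0.147). The knockout libraries were close to each other and the spread lay in the wild type: the ratio was 62.3 with WT replicate 1 left out and 9.95 with WT replicate 2 left out. Its paralogue Pou4f2, of retinal ganglion cells, had 1 count, and Phox2a, Tlx1 and Tlx3, of noradrenergic and dorsal horn neurons, had 2 counts each in knockout replicate 2, with 1 wild-type count for Tlx3.

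Onecut2, a cut homeodomain factor of liver and nervous system, stood at 50.9 and 25.9 CPM in RingKO and 1.9 and 2 CPM in WT, 19.4-fold higher with no overlap (log2 fold change 4.28 ± 0.82, edgeR adjusted p = 0.124). Onecut1 had 3 and 5 counts against 0. Nr2e1, a nuclear receptor of neural stem cells, stood at 10.3 and 2.37 CPM in RingKO and 0.759 and 0 CPM in WT. It was 15.2 times higher by pooled counts with a 95% counting interval of 4.05 to 128 (DESeq2 adjusted p = 0.14). The ratio was 6.66 with knockout replicate 1 left out and 29 with replicate 2 left out. With a wild-type library left out, Nr2e1 was at least 5.38-fold higher (replicate 1 left out) or 7.1 times higher (replicate 2 left out). Prox1, of lymphatic endothelium, lens and neurons, stood at 8.28 and 1.12 CPM against 0 counts, at least 7.22-fold higher, with bounds of at least 2.1-fold with knockout replicate 1 left out and at least 15.5-fold with replicate 2 left out. Lymphatic and endothelial markers, 0 of 12 higher and 4 lower in both knockout libraries, had summed levels of 124 and 105 CPM against 185 and 227 CPM; most of each knockout sum was Pdpn, at 49.9 and 61.2 against 107 and 116 CPM, and Egfl7, at 70.9 and 43.3 against 58.9 and 61.1 CPM. Lyve1 had 0 counts in RingKO against 13 and 0 in WT, Ccl21a had 0 in all 4 libraries, and Flt4 had 2 and 1 against 0 and 2. Of all genes with a count, 22.4% were higher and 16.9% lower in both knockout libraries.

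Members differed in how far apart their 2 knockout libraries lay. Over all genes the knockout libraries differed by more than counting error, the chi-square over its degrees of freedom being 25, so an interval from counting error alone that leaves out 1 does not set a member apart from other genes. Isl2 was 7.34 times higher in knockout replicate 1 than in replicate 2 (95% counting interval 4.64 to 12.1), Prox1 was 7.39 times higher (3.54 to 17.3), Nr2e1 4.35 times (2.53 to 7.81), Pax6 2.61 times (2.1 to 3.25) and Emx2 2.55 times (1.71 to 3.85). The reverse held for En2, 37 times higher in replicate 2 (6.39 to 1480), for Lhx1, 3.52 times (1.56 to 9.32), and for Otx2, found in replicate 2 alone. Pou4f1 (1.08 times higher in replicate 2, interval 0.905 to 1.3), En1 (1.24 times higher in replicate 1, 0.715 to 2.13) and Otx1 (1.28 times higher in replicate 2, 0.909 to 1.83) lay within counting error of each other. Such intervals hold counting error alone, and whether PCR copies of 1 molecule were counted apart is not stated.

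**Figure D5:**
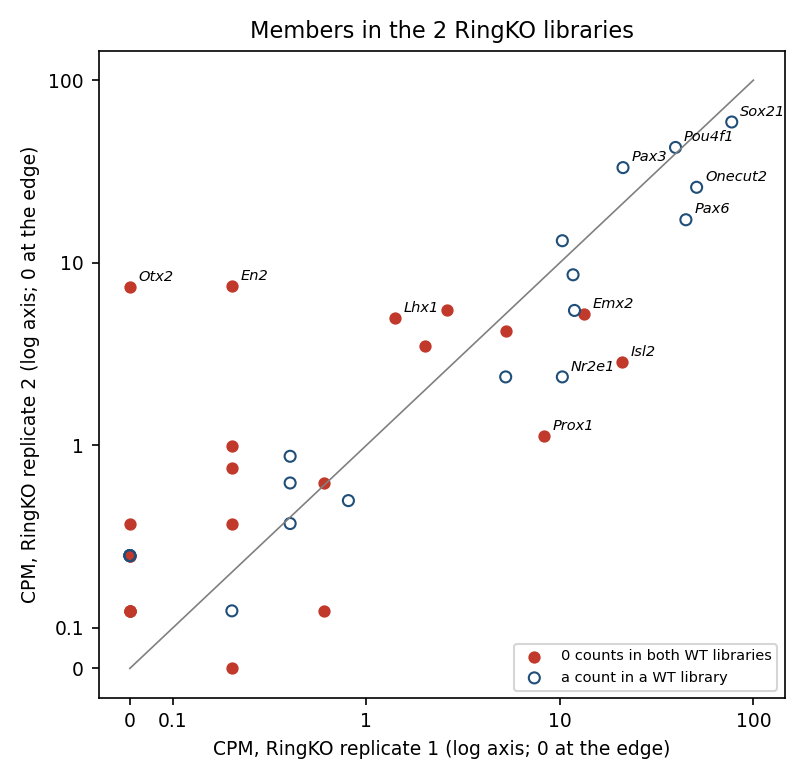
CPM of each member with a knockout count in knockout replicate 1 (x axis) and replicate 2 (y axis), both log axes with 0 at the edge; filled points had 0 counts in the wild type, open points had a wild-type count, and the line marks equal levels. Isl2, Prox1 and Nr2e1 lie on the side of replicate 1, and Otx2 and En2 on that of replicate 2.

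Other factors of neural development, from a list of 57 outside the set, gave 0 that rose and 0 that fell of 23 tested (edgeR; 6 higher and 0 lower unadjusted; 8 higher and 0 lower in DESeq2, 0 in limma-voom). At least 1 CPM was found in both libraries for 17 of the 57 in the wild type and 30 in the knockout. Of 25 at 0 wild-type counts, 7 reached 1 CPM in both knockout libraries. Both knockout libraries were above both wild-type libraries for 26 of the 57 and below for 1, and 6 had no count. Over all genes with a count, 22.4% were higher and 16.9% lower, shares that leave out genes with no count. The knockout libraries were the deeper pair, so the 26 are not read against them. Genes near 0 in the wild type could pass edgeR's filter only through the knockout. In DESeq2, 6.21% of all genes with an adjusted p were called higher. Among the 26 were Meis2, at 30.9 and 16.2 against 0.38 and 1.33 CPM, and Zic1, at 15.1 and 19.4 against 1.14 and 2 CPM. The members of that list with the highest mean CPM overlapped between genotypes: Lhx2, a factor of follicle stem cells, stood at 138 and 112 against 106 and 141 CPM, Sox4 at 126 and 109 against 102 and 139 CPM, and Pou3f1 at 127 and 112 against 102 and 126 CPM. Cofactors and inhibitors that the set's proteins work with, such as E proteins, Id proteins, Ldb, Lmo, Groucho and Eya proteins, gave 0 of 29 tested in edgeR (4 higher and 2 lower unadjusted; 5 higher and 2 lower in DESeq2, 0 in limma-voom). Tle3, a Groucho corepressor, stood at 245 and 235 against 267 and 183 CPM, Lmo4, a LIM-only protein, at 218 and 181 against 362 and 330 CPM (edgeR adjusted p = 0.147), and Id3, an inhibitor of bHLH factors, at 165 and 126 against 294 and 304 CPM (edgeR adjusted p = 0.124).

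Genes of differentiated neurons gave 0 of 11 tested in edgeR (3 higher and 0 lower unadjusted; 2 higher and 0 lower in DESeq2, 0 in limma-voom), out of 38 in the list. At least 1 CPM in both libraries was found for 10 of the 38 in the wild type and 11 in the knockout. Of the 18 at 0 wild-type counts, 1 reached 1 CPM in both knockout libraries. Celf4, an RNA-binding protein of neurons, stood at 68.7 and 82.8 against 10.6 and 18 CPM (log2 fold change 2.40 ± 0.46, edgeR adjusted p = 0.124), Map2, a dendritic microtubule protein, at 21 and 51.8 against 38 and 32.4 CPM, and Stx1a, a synaptic membrane protein, at 37.1 and 10.9 against 11.8 and 16.4 CPM. Of the 38, 11 were higher and 1 lower in both knockout libraries, beside 22.4% of all genes with a count that were higher. The 38 include genes with no count, and the 11 are likewise not read against that share. Among the 11 were Mapt, at 11.7 and 25.1 against 0 and 0.667 CPM, and Nefh, at 4.04 and 3.73 against 0 and 0 CPM. Gap43, Stmn3 and Elavl4 were among 5 with no count in any library. Tubb3, a neuronal tubulin and the 1 that was lower, stood at 0.808 and 1.87 against 26.6 and 2.34 CPM.

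Markers of other cells that a sort of skin could hold were summed over each list. Of all genes with a count, 22.4% were higher and 16.9% lower in both knockout libraries. The knockout libraries were the deeper pair, so the counts of each list below are not read against these shares. Leukocyte markers stood at 888 and 412 CPM in RingKO against 177 and 185 CPM in WT and were highest in knockout replicate 1. Of 15, 8 were higher and 1 lower in both knockout libraries, and Cd207 was at 0. Fibroblast, melanocyte and follicle stem cell sums were also higher in knockout replicate 1 than in replicate 2, and the Merkel cell sum was lower. Among members, Isl2, Prox1, Nr2e1, Pax6, Emx2, Onecut2 and Pax2 were higher in replicate 1, and Otx2, En2, Lhx1, Nkx6-1 and Pax3 in replicate 2. A link between members and these sums was not tested. Merkel cell genes stood at 98.7 and 134 against 11.8 and 39.4 CPM, with 5 of 14 higher in both knockout libraries; in the knockout most of this was Krt8, Krt18, Isl1 and Piezo2. Sox2, a Merkel cell and progenitor factor, stood at 2.22 and 4.98 against 0 and 0 CPM and Insm1 at 0.606 and 8.71 against 0.759 and 0.667 CPM, while Cck and Vip had no count, Krt20 had at most 5 counts in a library and Atoh1 at most 7. Schwann and nerve genes stood at 208 and 207 against 79.4 and 186 CPM, with 4 of 10 higher in both and Sox10 at 0. Most of each of these sums was Pmp22, at 108 and 91.1 against 12.5 and 70.1 CPM, and Erbb3, at 71.9 and 67.8 against 48.2 and 81.4 CPM. Fibroblast genes stood at 481 and 340 against 811 and 843 CPM, with 5 of 13 higher and 2 lower in both knockout libraries. Follicle stem cell genes stood at 2350 and 1990 against 2030 and 2300 CPM, with 5 of 16 higher and 3 lower in both knockout libraries. Of these, Sox9 stood at 172 and 156 against 49.4 and 95.1 CPM, and Cd34 at 15.3 and 2.61 against 24.3 and 20.4 CPM. The list of hair shaft and cuticle genes also held inner root sheath genes. It stood at 1680 and 1840 against 3090 and 2460 CPM, with 4 of 21 higher and 8 lower in both. Its genes of highest mean CPM were of the inner root sheath. Krt71 stood at 433 and 378 against 1060 and 811 CPM, and Gata3 at 458 and 387 against 712 and 570 CPM. The sum is thus no measure of the shaft and cuticle alone. The part of these cells in the members' counts was not tested. Ring1, which encodes Ring1a, stood at 15.6 and 18.4 against 31.9 and 29.4 CPM, and Rnf2, which encodes Ring1b, at 151 and 153 against 144 and 87.8 CPM; neither passed edgeR's test (adjusted p = 0.551 and 0.532), and counts over whole genes do not check a deletion of single exons.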

How the data were processed

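RNA libraries were made with SMART-seq2, per the labels' protocols. Build mm9 and the tools HTSeq 0.7.2, TopHat2 2.1.1 and DESeq2 are among those in the submitters' processing notes; no source used here gives their roles, settings, annotation or use of strand. The count table deposited by the authors holds raw counts per gene symbol. The authors' deposited comparison table gives log2 fold changes, mean normalized signal, a standard error score and p-values; marks of higher and lower genes, log2 values and adjusted p were read from it.

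Counts were tested over all genes with edgeR 4.0.16 in R 4.3.3 (filterByExpr, TMM, robust quasi-likelihood test, Benjamini-Hochberg), with genotype as the only term; SE was derived from the log2 fold change and F. DESeq2 1.42.0, limma-voom (limma 3.58.1), other filters, scalings, a replicate block and left-out libraries were alternatives, and the fits were tested on simulated data. Folds use pooled counts over scaled totals: a fold against 0 counts is a lower bound from a floor of 3 counts over the group, a ratio on 1 to 3 counts has an exact 95% interval from counting error alone, and others are fitted. Bounds and ratios without a library are pooled counts. Expected detection at equal depth is the exact hypergeometric value.

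Members with a mean of at least 5 CPM in a genotype were given with their test. Members with at least 1 CPM in a library were given with their values, and the rest with counts. List genes were named by mean CPM, up to 3 a list. Those named beside them, as markers, for their change or for their 0 counts, were chosen after their values were seen. The members and gene lists were chosen with earlier results of these data known. 1 symbol of the lists, Trdc, had no row.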

Additional observations from a re-analysis of the deposited data

How the results depend on the processing

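The number of genes called over the whole table, 8 in edgeR, was 1792 in DESeq2, 802 with no low-count filter, 1 with at least 1 CPM in 2 libraries, 1 with loess offsets on abundance (chosen after the data were seen), 0 in limma-voom (1945 unadjusted) and 0 to 60 when a library was left out. The number of members called, 0 in edgeR, was 10 in DESeq2 and 6 with no low-count filter, and 0 in the other unpaired settings, with 6 or 7 unadjusted when a library was left out. With the replicate number as a block edgeR called 416 genes and 4 members (Pax3, Pax6, Pou4f1 and Onecut2). The labels do not say that a number marks a shared animal or day, and same-numbered libraries deviated in opposite directions (Pearson -0.141 across 13134 genes, which are not independent); with the numbers crossed, a choice made after the data were seen, 8 genes and 0 members were called. The cause of these differences was not tested.

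Members with at least 1 CPM in both wild-type libraries, 2 of 49, were 5 at 0.5 CPM, 1 at 2 CPM and 2 to 6 when a library was left out. Members with a count in the knockout averaged 28.8 at equal depth and 34 in the full libraries. The 10 tested members with a mean of at least 5 CPM gave 119 alternative log2 fold changes and 0 reversals, a direction largely fixed beforehand, since all but Sox21 passed the filter through the knockout and Isl2 and Emx2 had 0 wild-type counts; 19 of the values passed the threshold that edgeR with all libraries did not. The precision of members near 0 is set by counts of 0 to 3 in the wild type, the shallower pair of libraries.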
